A study of Caenorhabditis elegans with 6 samples.

Results

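The fatty acid pathway of Caenorhabditis elegans is described here through 10 of its genes: the regulator gene sbp-1, the synthesis genes pod-2 and fasn-1, and the desaturase genes fat-1, fat-2, fat-3, fat-4, fat-5, fat-6 and fat-7. They were found by gene symbol in the platform's probe annotation, and the choice of genes was made with earlier results of these data known. These 10 genes were read by 11 of the 22548 probe sets tested, and 10 of 17118 genes with a single symbol. Only fasn-1 had 2 probe sets. RNA came from wild type worms of the strain CC1 grown in C. elegans Maintenance Medium (CeMM), a liquid medium without bacteria. For the space condition, worms of mixed stages were kept on the International Space Station for up to 10 generations and moved by an automatic device into fresh medium about every 1 month, exposed to space radiation and microgravity. For the ground control, worms of the same strain were passaged at the same times on Earth. Each group had 3 Affymetrix arrays labelled as technical replicates. The labels do not say how many cultures or RNA extracts stood behind them, so p-values reflect only how far these arrays scatter, a scatter that may be technical.

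Worms build long fatty acids from acetyl-CoA. Acetyl-CoA carboxylase makes malonyl-CoA, fatty acid synthase assembles saturated chains from it, and desaturases then add double bonds in a set order, giving monounsaturated and then polyunsaturated fatty acids, without a dietary source of the latter. Much of this work is done in the intestine, the main fat store of the worm. SBP-1, the worm homologue of the mammalian sterol regulatory element binding proteins, is known to switch on fatty acid synthesis and desaturase genes.

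The deposited values were linear intensities, one per probe set and array, with medians between 111.9 and 119.3 for space arrays and between 102.5 and 128.1 for ground arrays. Differences are space condition minus ground control on the scale log2(intensity + 16), with the standard error of limma, and a gene rose or fell if its p, adjusted by Benjamini-Hochberg over all 22548 probe sets, was under 0.05 and the difference was at least 2-fold. The deposited scaling gave each array a 2%-trimmed mean of about 500, and all differences are relative to that total. The 24 probe sets for bacterial poly-A control transcripts (dap, lys, phe and thr), commonly added to the RNA before labelling, averaged 10.19 ± 0.28 in the space condition, against 11.14 ± 0.06 in the ground control (mean log2 level ± SD, n = 3 each), without overlap. The labels do not say whether or in what amount these controls were added. The 18 probe sets of the hybridisation controls averaged 10.08 ± 0.10 in the space condition, against 10.51 ± 0.43 in the ground control (mean log2 level ± SD, n = 3 each), a difference of -0.43 with overlapping groups. The actin control, whose 5′ signal relative to its 3′ signal is a measure of RNA quality, had a log2 ratio of -3.12 ± 0.16 in the space condition, against -3.97 ± 0.36 in the ground control, also without overlap. The same log2 ratio of the Gapdh control was -1.50 ± 0.56 in the space condition, against -2.13 ± 1.41 in the ground control, with overlapping groups. The part of any of these in the results below was not tested.

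One of the 10 genes passed the test. The fatty acid synthase gene fasn-1 fell, and 0 of the 10 genes rose. Across the array, 7.76% of genes passed in either direction (2.42% of all genes were lower and 5.34% of all genes higher on the space arrays), so the count of the 10 genes is near that background. By probe set it was 1 of 11, against 7.31% of all probe sets. At an adjusted p under 0.05 alone fasn-1 was again the single gene past it, against 9.64% of all genes. The log2 differences of the 10 genes ran from -1.20 for fasn-1 to 0.62 for sbp-1, with 7 below 0 and 3 above. Their median was -0.39, against -0.02 over all genes. When each array was instead centred on its poly-A controls, 6 of the 7 negative differences turned positive and only that of fasn-1 stayed below 0, at -0.25. At an unadjusted p under 0.05 there were 4 of the 10 genes, 3 lower and 1 higher, against 25.6% of all genes. The groups did not overlap in 5 of the 10 genes, against 31.4% of all genes. In fasn-1, fat-1, fat-2 and fat-3 all 3 space arrays lay below all 3 ground arrays (13.8% of all genes), and in sbp-1 all 3 lay above (17.6% of all genes).

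**Figure D1:**
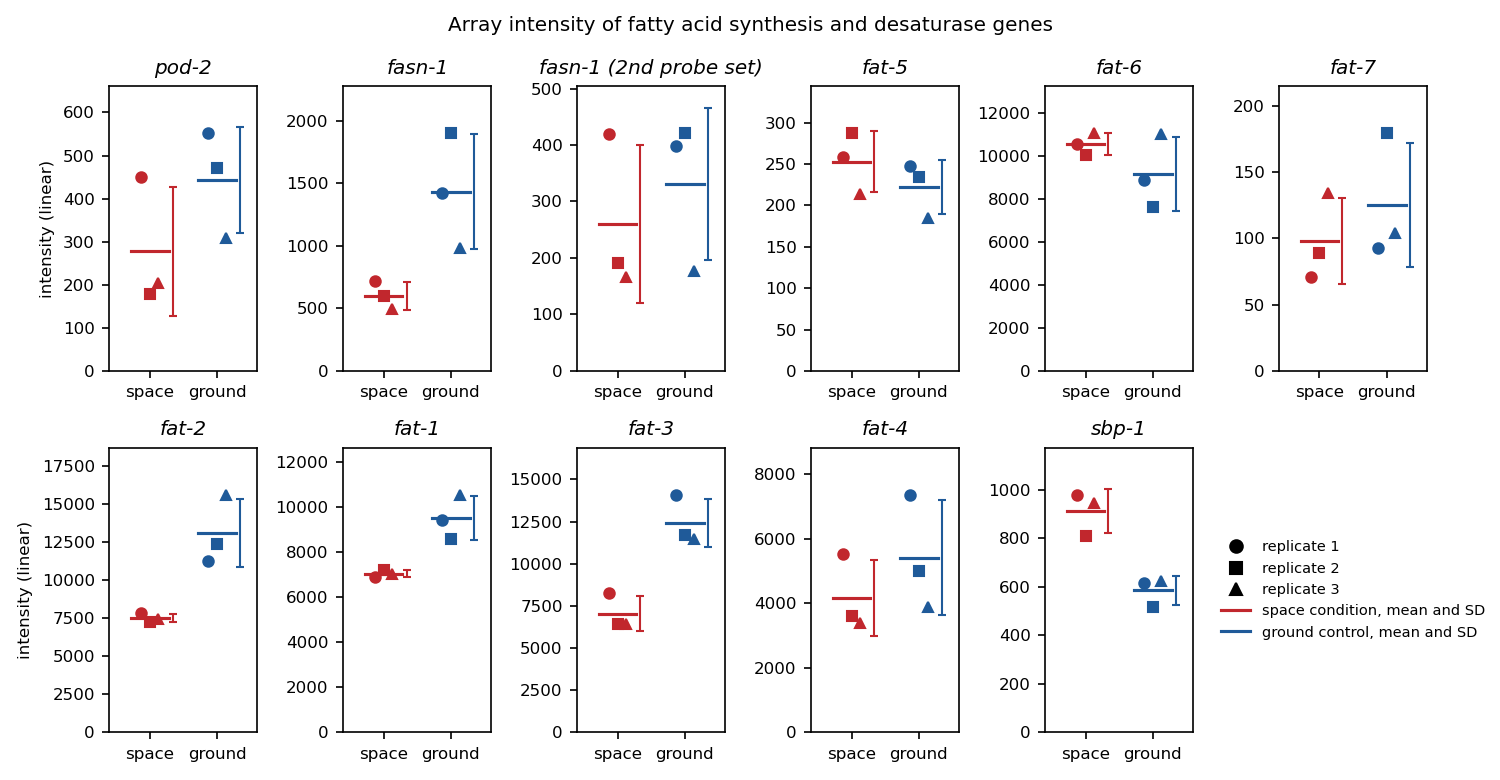
Linear array intensity (vertical axes, each from 0) of the 11 probe sets, with space arrays in red on the left and ground arrays in blue on the right. Points are single arrays, horizontal lines are means and bars are SDs (n = 3 each). The groups stand apart for the brighter fasn-1 probe set, fat-1, fat-2, fat-3 and sbp-1, and overlap for the other 6 probe sets.

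The regulator gene sbp-1 had intensities of 978.1, 807.1 and 946.7 on the space arrays, against 614.1, 516.2 and 625.4 on the ground arrays. Every space array was above every ground array. The log2 difference of 0.62 ± 0.20 had a 95% interval of 0.15 to 1.10 and did not pass after adjustment (adjusted p = 0.104, limma). It stayed above 0 under 15 of 15 other ways of processing, between 0.48 and 0.71, and was short of 2-fold in each. Centred on the poly-A controls it was 1.57 and passed the test (adjusted p = 0.00228). On that scaling 9598 of the 22548 probe sets rose. The sbp-1 probe set carries the platform's mark of probes shared between transcripts, as do those of pod-2 and fat-6.

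Both synthesis genes ahead of the desaturases had lower means on the space arrays, and fasn-1 passed the test, while centring on poly-A controls put pod-2 at 0.22. The brighter probe set of fasn-1, which encodes the multidomain enzyme that assembles palmitate, had intensities of 715.6, 599.3 and 491.3 on the space arrays, against 1426, 1898 and 978.7 on the ground arrays. Even the lowest ground array, replicate 3, was above the highest space array. The means were 602.1 ± 112.2 in the space condition and 1434 ± 460 in the ground control (SD, n = 3 each), and the log2 difference was -1.20 ± 0.29 (95% interval -1.87 to -0.53, adjusted p = 0.0433, limma). This call was narrow. It held without ground control 3 (adjusted p = 0.0356) and was lost without space condition 1 (0.0748), space condition 2 (0.121), space condition 3 (0.143), ground control 1 (0.0988) or ground control 2 (0.11), with differences of -0.97 to -1.44 in these 6 fits.

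The dimmer fasn-1 probe set did not show the same separation. It read 420.3, 191.8 and 166 on the space arrays, against 397.8, 420.4 and 177 on the ground arrays. Replicate 1 of the space condition stood with the upper ground arrays, and ground control 3 stood with the lower space arrays. The log2 difference was -0.36 ± 0.43 (95% interval -1.36 to 0.64, adjusted p = 0.675, limma). Neither probe set carries the mark of shared probes, and the sources used here do not say which stretch of the transcript each reads.

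The acetyl-CoA carboxylase gene pod-2, whose enzyme supplies malonyl-CoA to fatty acid synthase, had intensities of 450.1, 177.9 and 204.8 on the space arrays, against 551.1, 470.5 and 308.3 on the ground arrays. Space condition 1 lay inside the ground range and the other 2 space arrays lay below it. The log2 difference was -0.72 ± 0.38 (95% interval -1.59 to 0.15, adjusted p = 0.292, limma). Leaving out 1 array moved it both ways, from -1.11 without space condition 1 (adjusted p = 0.0947) to -0.48 without space condition 2 (adjusted p = 0.574). Without both space condition 1 and ground control 3 it was -1.34 (adjusted p = 0.0664).

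**Figure D2:**
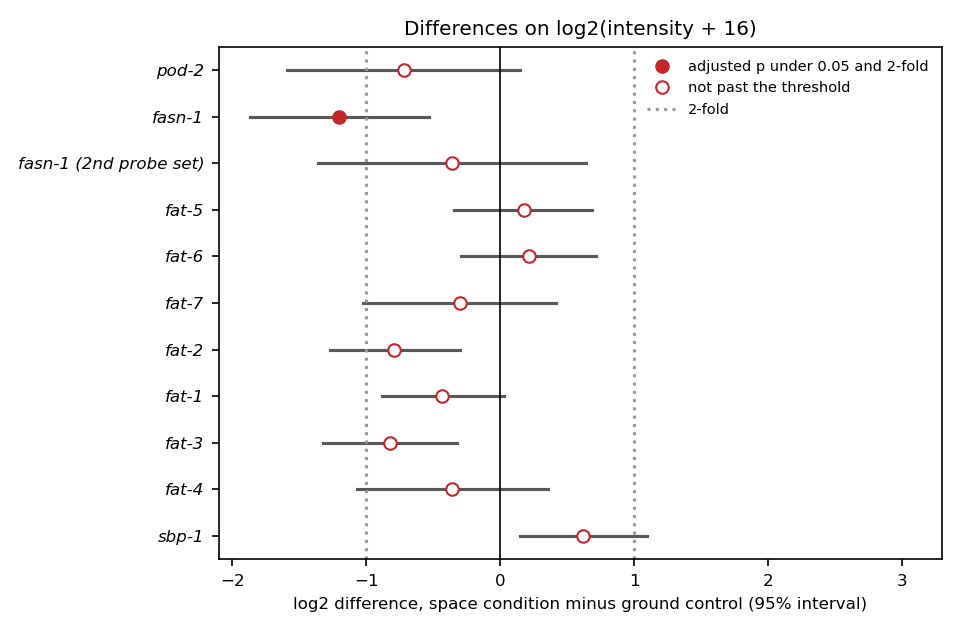
Log2 difference, space condition minus ground control, on the scale log2(intensity + 16) for the 11 probe sets (points) with 95% intervals from limma (lines). The filled point, the brighter fasn-1 probe set at -1.20, passed the test, and the intervals of fasn-1 (brighter probe set), fat-2, fat-3 and sbp-1 lie to one side of 0. Centred on poly-A controls, the differences of pod-2, the dimmer fasn-1 probe set, fat-7, fat-2, fat-1, fat-3 and fat-4 turned positive.

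The desaturases that place the first double bond showed no difference past the test on the deposited scaling. When centred on poly-A controls fat-5 and fat-6 passed it, on a scaling where 9598 of the 22548 probe sets rose. FAT-5 acts mainly on palmitic acid, while FAT-6 and FAT-7, 2 closely related enzymes with overlapping roles, act on stearic acid. The fat-6 probe set read 10542, 10018 and 11040 on the space arrays, against 8857, 7612 and 11027 on the ground arrays. Ground control 3 lay within the range of the space arrays and the other ground arrays lay below it. The log2 difference was 0.22 ± 0.22 (95% interval -0.29 to 0.72, adjusted p = 0.609, limma), so the interval leaves out a 2-fold change on the deposited scaling. Centred on the poly-A controls the difference was 1.16 (adjusted p = 0.012, limma). Because this probe set is marked as shared, its signal may not come from fat-6 alone.

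The fat-5 intensities were 258, 287 and 213.5 on the space arrays, against 247.4, 234.2 and 184.9 on the ground arrays. They overlapped, with a log2 difference of 0.18 ± 0.22 (95% interval -0.34 to 0.69, adjusted p = 0.693, limma). Centred on the poly-A controls it was 1.12 (adjusted p = 0.0101). The fat-7 probe set was dim. It read 71.03, 88.95 and 134.2 on the space arrays, against 92.81, 179.3 and 104.5 on the ground arrays. For comparison, 8 controls against yeast and bacterial sequences, absent from worm RNA, read 0.562 to 86.7, with a median of 6.48. Space condition 1 of fat-7 lay within that range, and fat-7 was the single probe set of the 11 with any array there. Its log2 difference was -0.30 ± 0.31 (95% interval -1.02 to 0.42, adjusted p = 0.617, limma), which the pseudocount understates at this level.

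All 4 desaturase genes of polyunsaturated fatty acids had lower means on the space arrays, 3 of them without overlap, while none passed the test and all 4 differences turned positive when centred on poly-A controls. FAT-2 turns oleic into linoleic acid, the first polyunsaturated product. The fat-2 probe set read 7820, 7275 and 7458 on the space arrays, against 11287, 12388 and 15600 on the ground arrays. The space arrays were close to each other and well below every ground array. Means were 7518 ± 277.1 in the space condition and 13092 ± 2241 in the ground control (SD, n = 3 each), with a log2 difference of -0.79 ± 0.21 (95% interval -1.27 to -0.30). The difference just missed the p threshold (adjusted p = 0.0585, limma) and was short of 2-fold.

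FAT-1 is the omega-3 desaturase, an enzyme that mammals lack. The fat-1 probe set read 6895, 7222 and 7012 on the space arrays, against 9414, 8571 and 10536 on the ground arrays. Again no space array reached the lowest ground array. The log2 difference was smaller, -0.43 ± 0.20 (95% interval -0.88 to 0.03, adjusted p = 0.228, limma). In the RefSeq annotation of WBcel235 fat-1 and fat-2 are neighbours on chromosome IV, with 0 protein-coding genes between them.

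FAT-3 and FAT-4 add the double bonds nearest the carboxyl end on the way to arachidonic and eicosapentaenoic acid. The fat-3 probe set read 8248, 6446 and 6429 on the space arrays, against 14075, 11677 and 11480 on the ground arrays. All space values were below all ground values, and replicate 1 was the highest array in both groups. Means were 7041 ± 1046 in the space condition and 12411 ± 1444 in the ground control (SD, n = 3 each), with a log2 difference of -0.82 ± 0.21 (95% interval -1.32 to -0.32, adjusted p = 0.0543, limma), short of both thresholds.

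The fat-4 probe set read 5516, 3608 and 3386 on the space arrays, against 7351, 4998 and 3868 on the ground arrays. The groups overlapped, since space condition 1 lay above ground controls 2 and 3. The log2 difference was -0.36 ± 0.31 (95% interval -1.07 to 0.36, adjusted p = 0.543, limma). The gene is the neighbour of fat-3 on chromosome IV, again with 0 protein-coding genes between them. For pod-2, fat-3 and fat-4, 3 of the 11 probe sets, replicate 1 was the highest array of both groups, as it was in 15.7% of all probe sets.

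The probe sets of fat-1, fat-2, fat-3, fat-4 and fat-6, 5 of the 11, had a mean intensity of at least 3000. In all 5 the SD of the intensities was smaller on the space arrays, as in 71.4% of the 1231 probe sets this bright. The coefficient of variation was 2.35% in the space condition and 10.4% in the ground control for fat-1. It was 3.69% in the space condition and 17.1% in the ground control for fat-2, and 4.85% in the space condition and 18.9% in the ground control for fat-6. For fat-4 it was 28.1% in the space condition and 32.9% in the ground control, and fat-3 went the other way, with 14.9% in the space condition and 11.6% in the ground control. In fat-1 and fat-2 ground control 3 was the highest of the 6 arrays, as in 43.2% of probe sets this bright. Without that array the difference of fat-2 was -0.65 (adjusted p = 0.136, limma). The bright probe sets as a whole had a median log2 difference of -0.16, and 2.92% of them fell.

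**Figure D3:**
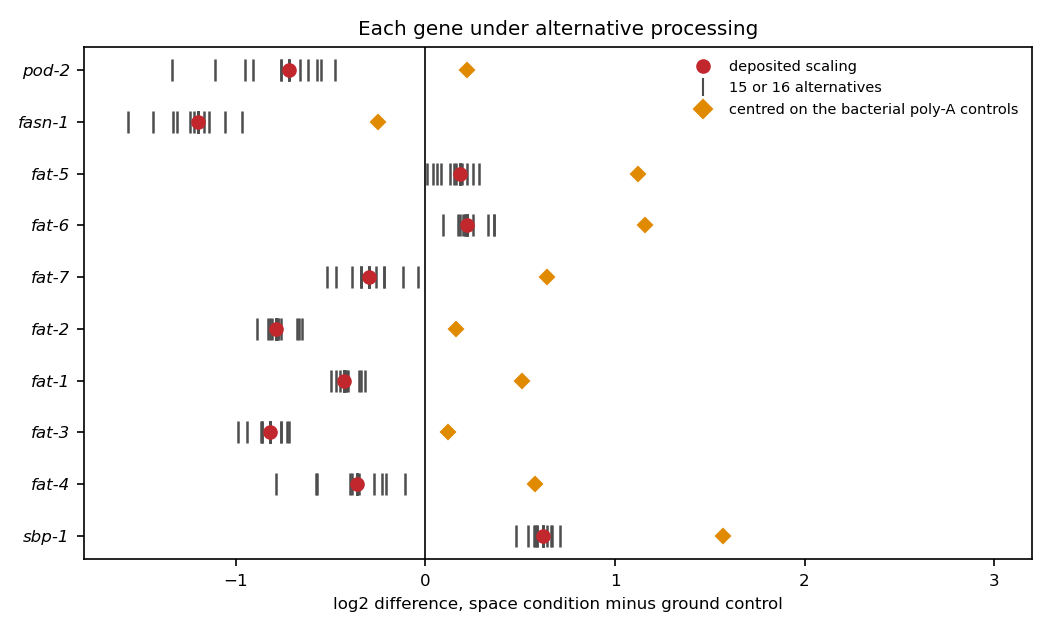
Log2 difference, space condition minus ground control, of each of the 10 genes (one row each, brightest probe set) on the deposited scaling (circles), under 15 or 16 other ways of processing (vertical ticks) and centred on the bacterial poly-A controls (diamonds). The circles and ticks of a gene lie on one side of 0, while the diamonds lie about 0.94 higher and turn the sign of pod-2, fat-7, fat-2, fat-1, fat-3 and fat-4.

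Other genes of the pathway were counted in lists, with the brightest probe set standing for each gene. The background for the count of each list is that 5.34% of all genes rose and 2.42% fell. The list of regulators of desaturase genes and of membrane lipid sensing held 16 measured genes, of which 1 rose and 0 fell, with a median of -0.11. The gene that rose was scp-1, the homologue of SCAP, which in mammals escorts the sterol regulatory element binding proteins to the Golgi for activation. Its intensities were 2098, 2091 and 2071 on the space arrays, against 831.9, 919.2 and 625.6 on the ground arrays. Every space array was far above any ground array, with a log2 difference of 1.40 ± 0.22 (adjusted p = 0.011, limma). A second probe set of scp-1, without the mark of shared probes, gave 1.80 ± 0.26 (adjusted p = 0.00843). The call on the brighter probe set was lost in 3 of 15 other ways of processing. One was a 1.5-fold minimum inside the test (adjusted p = 0.132). The others were leaving out space condition 2, at an unmoved 1.40 (adjusted p = 0.0507), and both space condition 1 and ground control 3, at 1.24 (adjusted p = 0.067).

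The nuclear hormone receptor genes that act on desaturase genes gave smaller differences. The brightest gene of the list, nhr-49, a regulator of fat-7 and of fat breakdown, stood at -0.45 ± 0.26 (adjusted p = 0.347, limma). Its means were 5822 in the space condition and 8090 in the ground control. A dimmer probe set of nhr-49 stood at -0.17 ± 0.22 (adjusted p = 0.716, limma). The gene nhr-80, whose product is known to act on fat-6 and fat-7 and which is named here after its values were seen, read 259.6, 300 and 318.6 on the space arrays, against 604.1, 501.5 and 601.7 on the ground arrays. Its groups were well apart. Its log2 difference of -0.92 ± 0.20 passed the p threshold (adjusted p = 0.0328, limma) but not the 2-fold minimum. In the other direction pcyt-1, which encodes an enzyme of phosphatidylcholine synthesis and is also named after its values were seen, read 1663, 1128 and 1217 on the space arrays, against 602.5, 667.7 and 711.7 on the ground arrays. Its groups did not overlap either, and its log2 difference of 0.98 ± 0.23 passed the p threshold (adjusted p = 0.0375, limma) but not the 2-fold minimum. A dimmer probe set of pcyt-1 stood at 0.55 ± 0.22 and passed neither (adjusted p = 0.171, limma). The probe sets of nhr-80 and pcyt-1 both carry the mark of shared probes. At an adjusted p under 0.05 alone there were 3 of the 16 genes of the list, 2 higher and 1 lower, against 9.64% of all genes. Centred on the poly-A controls, nhr-49 stood at 0.49.

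Of 11 measured genes of fatty acid elongation, which lengthen the chains the desaturases act on, 1 fell and 0 rose, with a median of -0.36 and 9 values below 0. The gene that fell was elo-2, which encodes an elongase of palmitic acid. It read 346.2, 427.7 and 327 on the space arrays, against 1051, 611.8 and 691 on the ground arrays. No space array reached a ground array, and the log2 difference was -1.03 ± 0.26 (adjusted p = 0.0486, limma). This call was at the edge, being lost under 13 of 16 other ways of processing. They included each fit that left out 1 array, with differences of -0.81 to -1.19 and adjusted p = 0.0662 to 0.154. The brightest, hpo-8, which encodes a dehydratase of the elongation cycle, stood at -0.11 ± 0.21 (adjusted p = 0.806, limma) and at 0.02 after quantile normalization. None of 10 genes for acetyl-CoA and NADPH supply and cytochrome b5, the electron donor of desaturases, passed the test in limma. At an unadjusted p under 0.05 there were 0 of the 10, against 25.6% of all genes, and their median was -0.09. The brightest of these, cytb-5.2, stood at -0.19 ± 0.24 (adjusted p = 0.694, limma).

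**Figure D4:**
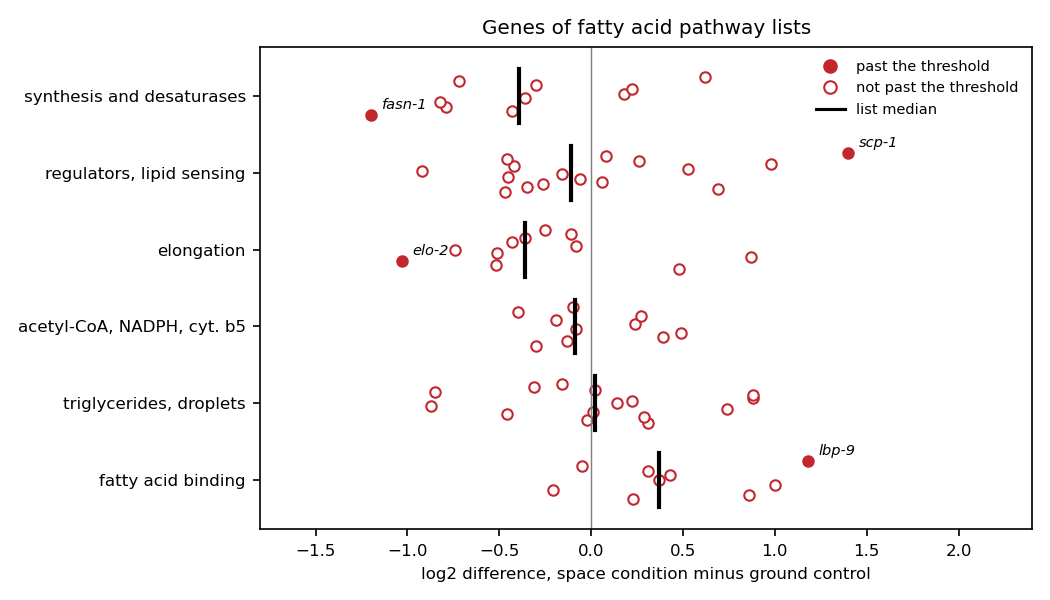
Log2 difference, space condition minus ground control, for each gene (points, brightest probe set) of the 10 genes and of 5 further pathway lists, with list medians as vertical lines. The filled points passed the test, with fasn-1 and elo-2 lower and scp-1 and lbp-9 higher on the space arrays; other points did not pass. Centred on poly-A controls, fasn-1 stood at -0.25 and elo-2 at -0.09.

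The arrays measured whole worms, so fewer cells of a tissue and less RNA per cell cannot be told apart. Over all genes 5.34% rose and 2.42% fell, the background for each marker count below. Of 14 intestine markers, 1 rose and 0 fell. Their summed intensity was between 43965 and 52847 for space arrays and between 41319 and 55639 for ground arrays, and 0 of the 14 had a mean within the range of absent controls. A large part of these sums was asp-1 and mtl-2, with space means of 19630 and 12101. At an unadjusted p under 0.05 (limma) 4 of the 14 were higher and 0 lower, against 25.6% of all genes in either direction. At an adjusted p under 0.05 alone 2 were higher, against 9.64% of all genes. Of the 14, 8 lay above 0 and 6 below, with a median of 0.12. The marker that rose was pept-1, which encodes the intestinal peptide transporter, at 1.72 ± 0.34 (adjusted p = 0.0227, limma), while the brightest marker, the protease gene asp-1, stood at -0.13 ± 0.23 (adjusted p = 0.798) and at 0.81 centred on poly-A controls. The call of pept-1 was lost in 6 of 16 other ways of processing, among them without space condition 1, 2 or 3 (adjusted p = 0.0743, 0.0758 and 0.0609). Of 14 germline markers 10 rose and 0 fell, with sums between 15403 and 16007 for space arrays and between 9741 and 10694 for ground arrays. Of the 4 with the largest rises, prg-1 (1.81) kept its call in 14 of 15 other ways of processing. For pgl-1 (1.71) it was 13 of 15 and for syp-1 (1.67) 15 of 16, while him-3 (1.30, adjusted p = 0.041) lost its call in 10 of 16. A dimmer probe set of him-3, marked as shared, gave 2.19 ± 0.22 (adjusted p = 0.0045, limma). Of 11 hypodermis markers 2 fell and 0 rose, with sums between 2537 and 3384 for space arrays and between 2606 and 4242 for ground arrays, and 6 of the 11 had means within the range of absent controls. These 2 calls were rol-6 (-1.87, adjusted p = 0.0345), lost in 9 of 16 other ways of processing, and grd-10 (-1.25, adjusted p = 0.0473). The call of grd-10 was lost in 13 of 15, among them each fit that left out 1 array. Every array of grd-10 and every space array of rol-6 read within the range of absent controls, which reached 86.7. Of 10 body-wall muscle markers 1 rose and 0 fell, with sums between 17163 and 19903 for space arrays and between 23918 and 28868 for ground arrays. Most of these 10 went the other way, with 7 below 0 and a median of -0.40. At an unadjusted p under 0.05 (limma) there were 4 lower and 1 higher, against 25.6% of all genes in either direction. The muscle marker that rose, myo-3 (1.53, adjusted p = 0.0164), lost its call in 3 of 15 other ways of processing. Leaving out space condition 2 was among them (adjusted p = 0.0552). Of 10 neuron markers 0 rose and 1 fell, with sums between 20066 and 22497 for space arrays and between 26846 and 30390 for ground arrays. The neuron marker that fell, rab-3 (-1.07, adjusted p = 0.0212), lost its call in 7 of 15 other ways of processing. Among them were 5 of the 6 fits that left out 1 array. A dimmer probe set of rab-3 had the opposite sign, at 0.47 ± 0.49 (adjusted p = 0.617, limma). Its readings on space condition 2 (58.69) and ground controls 1 and 3 (74.36 and 17.08) were within the range of absent controls. The probe sets behind the calls of prg-1, pgl-1, myo-3 and rab-3 carry the mark of shared probes, so their signal may not come from these genes alone. The part of tissue makeup in the differences of the 10 genes was not tested.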

How the data were processed

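Total RNA extracted with Trizol was turned into biotinylated cRNA from 10 to 100 ng and hybridised to Affymetrix C. elegans arrays, per the labels' protocols. The authors deposited 1 linear intensity for each probe set on each array. How they summarised probes, removed background and scaled arrays: not given in the sources used here. Groups came from sample titles. The table held 22625 probe sets, among them 77 array controls that stayed out of the tests. Symbols came from the platform annotation, updated through gene identifiers to RefSeq (WBcel235), and the symbols of all 11 probe sets were the same in both. A gene was represented by its brightest probe set, by mean over all 6 arrays.

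Differences on log2(intensity + 16) were tested in limma 3.58.1 (lmFit, then eBayes, in R 4.3.3) with group as the sole factor. The procedure was tested on simulated arrays with independent noise, which does not bear on shared replicate effects or on the scaling. No filter on dim probe sets was used. Intervals are at 95% from the moderated t distribution. The number of arrays limits the precision. Figures used matplotlib 3.10.9.

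Besides the 10 genes, the rule for names took from each list up to 4 genes past the threshold with the largest changes and the brightest gene. Markers were listed for intestine, hypodermis, germline, body-wall muscle and neurons. The members, lists and settings were chosen with earlier results of these data known. Other ways of processing were scaling by quantiles or by medians, pseudocounts of 1 and 64, a minimum mean intensity of 64, a variance trend with intensity, a replicate block, removal of marked probe sets, a 1.5-fold minimum inside the test (treat), leaving out each array, and leaving out space condition 1 and ground control 3 together. Centring on poly-A controls was added after seeing the data.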

Additional observations from a re-analysis of the deposited data

How the results depend on the processing

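The 10 genes kept the sign of their difference under the 15 or 16 ways of processing other than centring on poly-A controls, and 9 of them stayed on the same side of the threshold. The fasn-1 call was lost in 9 of 16: with a pseudocount of 1 (-1.22, adjusted p = 0.0858), without marked probe sets (-1.20, adjusted p = 0.0542, fewer probe sets tested), with the 1.5-fold minimum inside the test (-1.20, adjusted p = 0.526), without space condition 1 and ground control 3 together (-1.57, adjusted p = 0.0642) and in 5 of the 6 fits that left out 1 array (-0.97 to -1.44 over all 6). The count of the 10 genes that fell was then 0 (0 to 1 when leaving out 1 array), and the cause was not tested. At an adjusted p under 0.05 and short of 2-fold, fat-3 passed in 4 alternatives, fat-2 in 3 and sbp-1 in 2.

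Across the array, 1162 probe sets rose and 486 fell. With a pseudocount of 1 these were 728 and 299, with a pseudocount of 64 they were 826 and 322, without marked probe sets 598 and 307, with the 1.5-fold minimum inside the test 130 and 75, and leaving out 1 array 413 to 825 and 171 to 376. Without space condition 1 and ground control 3 together limma called 0 and 0, with 5176 probe sets at an unadjusted p under 0.05. Rises made up 70.5% of calls on the deposited scaling, 58.8% after quantile normalization and 99.4% centred on poly-A controls. Of the 5 pathway lists, 2 genes rose and 1 fell. The count that fell was 3 after quantile normalization and 0 with median centring, pseudocounts of 1 or 64, the replicate block, without marked probe sets, with the 1.5-fold minimum, leaving out 1 array or leaving out both arrays together. The count that rose was 1 with a pseudocount of 1 or leaving out 1 array, and 0 with the 1.5-fold minimum or without both arrays.

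The deviations of same-numbered arrays from their group means correlated at 0.388, 0.058 and 0.171 for replicates 1, 2 and 3. Arrays of different numbers correlated at -0.28 to 0.159. The main fit did not take the numbers to pair the arrays, and the replicate block was an alternative. Whether replicate 1 was paired was not tested. With the replicate block, limma called 1741 probe sets against 1648, fasn-1 kept its call, and elo-2 lost its call at an unchanged -1.03 (adjusted p = 0.0657).

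Centring each array on its poly-A controls moved the median of all probe sets to 0.94. Of the 22548 probe sets 9598 then rose and 56 fell, the background for the counts that follow. Among the 10 genes 3 then rose, namely fat-5 (1.12), fat-6 (1.16) and sbp-1 (1.57), and 0 fell, with fasn-1 at -0.25. Signs turned for pod-2 (0.22), fat-7 (0.64), fat-2 (0.16), fat-1 (0.51), fat-3 (0.12), fat-4 (0.58) and the dimmer fasn-1 probe set (0.58). They also turned for nhr-49 (0.49), hpo-8 (0.83), cytb-5.2 (0.75), plin-1 (0.78) and the tissue markers asp-1 (0.81), gld-2 (0.10), unc-15 (0.18) and snb-1 (0.53). In the 5 pathway lists, with 16, 11, 10, 15 and 9 measured genes, 25 genes rose and 0 fell. By the construction of this scaling, every difference moved by about the same amount. Other turned signs were hpo-8 after quantile normalization (0.02), cytb-5.2 without both arrays (0.09), and the hypodermis marker lin-26 after quantile normalization (-0.03), median centring (-0.02) and without space condition 2 (-0.13) or ground control 1 (-0.20). Without marked probe sets, pod-2, fat-6 and sbp-1 had no probe set left.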

Other observations

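The lists of what follows fatty acid synthesis held differences in both directions. Over all genes 5.34% rose and 2.42% fell. Of 9 fatty acid binding protein genes, whose products carry fatty acids inside and between cells, 1 rose and 0 fell, with a median of 0.37. The gene that rose, lbp-9, was also the brightest of its list and read 4583, 2453 and 3325 on the space arrays, against 1342, 1449 and 1623 on the ground arrays. The groups were apart, with a log2 difference of 1.18 ± 0.27 (adjusted p = 0.0353, limma), and the call was lost under 8 of 16 other ways of processing. Leaving out an array ended it for space condition 1 (0.95, adjusted p = 0.087), space condition 3 (1.18, adjusted p = 0.107) and ground controls 1, 2 and 3 (adjusted p = 0.0886, 0.092 and 0.0677). Named after its values were seen, lbp-4 passed the adjusted p of 0.05 and was just short of 2-fold (1.00 ± 0.21, adjusted p = 0.0282, limma). At that adjusted p alone there were 2 of the 9 genes, against 9.64% of all genes.

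Of 15 measured genes of triglyceride synthesis and lipid droplets, 0 passed both thresholds in limma, with a median of 0.02. At an unadjusted p under 0.05 there were 3 higher and 3 lower, against 25.6% of all genes in either direction. Named after their values were seen, 4 of the 15 passed the adjusted p of 0.05, against 9.64% of all genes, and were short of 2-fold. They were dgat-2, which encodes an acyltransferase that makes triglycerides (0.88 ± 0.22, adjusted p = 0.0473), the lipid droplet dehydrogenase gene dhs-3 (0.88 ± 0.22, adjusted p = 0.0468), the hormone-sensitive lipase homologue hosl-1 (-0.85 ± 0.20, adjusted p = 0.04) and the acyl-CoA synthetase gene acs-22 (-0.87 ± 0.22, adjusted p = 0.0455). Dimmer probe sets of dgat-2, hosl-1 and dhs-3 stood at 0.19 ± 0.43, -0.06 ± 0.78 and 0.75 ± 0.23, and none passed the adjusted p of 0.05. Every array of the dimmer dgat-2 probe set read within the range of absent controls, which reached 86.7. So did most arrays of the dimmer hosl-1 and dhs-3 probe sets. The brightest gene of the list, the perilipin gene plin-1, stood at -0.16 ± 0.20 (adjusted p = 0.686) and at 0.78 centred on poly-A controls.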
